A study of Homo sapiens with 30 samples.

Results

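The TNF ligand superfamily and the TNF receptor superfamily were described across 24 samples of the human triple-negative breast cancer line MDA-MB-231, grown in mice and sorted back out of tumours and metastases. The members were all protein-coding genes whose symbol begins with TNFSF or TNFRSF and a digit, together with TNF, LTA, LTB, LTBR, FAS, FASLG, CD40, CD40LG, CD27, CD70, EDA, EDAR and EDA2R. This rule gave 46 genes, 19 ligands and 27 receptors, out of 38526 genes in the table of the first experiment and 36291 in the table of the retransplantation experiment. The first table held a row for 42 of them and the second for 43, with CD40LG in the second only, while EDA2R, TNFRSF13B and TNFRSF6B had no row in the tables used here. NGFR and RELT belong to the receptor superfamily by structure but fall outside the symbol rule and are not described.

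The cells carried a LeGO lentiviral barcode, and a pair of subclones named 13 and 2, each of which is 1 clone of the line, was followed. All hosts were NSG mice (NOD-SCID with no IL2R gamma chain), which lack mature T, B and NK cells. Their age was not given in the sources used here. In the first experiment, lung metastases, liver metastases and the primary tumour of each subclone were sorted from mice 1, 2 and 3, which gave 6 groups of 3 samples: C13 lung, C13 liver, C13 tumour, C2 lung, C2 liver and C2 tumour. In the second experiment, subclone 2 was retransplanted and sorted from mice 4, 5 and 6, which gave 2 groups of 3 samples, RT C2 lung and RT C2 liver; whether lung and liver name the source of the retransplanted cells or the organ they grew in is not stated. For each organ of C13 in mouse 1, 3 libraries were sequenced and their counts were summed.

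TNF superfamily ligands are mostly trimeric proteins held in the cell membrane or shed from it, and each binds one or a few receptors with cysteine-rich repeats outside the cell. Receptors with a cytoplasmic death domain, such as TNFRSF1A, FAS, TNFRSF10A and TNFRSF10B, can recruit FADD or TRADD and caspases. The others recruit TRAF adaptors and lead to NF-kB and MAP kinase signalling, and a few are decoys without a working cytoplasmic tail. Many ligands, among them TNFSF4 (OX40L), TNFSF9 (4-1BBL) and CD70, are best known from antigen-presenting cells, where they costimulate T cells. In breast cancer cells the family is known mainly through TNF and NF-kB, TRAIL (TNFSF10) and its death receptors, and the TWEAK receptor TNFRSF12A.

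The promoters of 4 members that the comparisons below turn on are shown first: TNFSF4 and TNFRSF1B, whose 3 lung samples were all above the 3 tumour samples in both subclones, TNFRSF9, whose 3 liver samples were all below the 3 tumour samples in both subclones, and TNFSF9, which differed between the subclones. They were chosen after their values were seen. Each is RefSeq sequence of GRCh38.p14 on the strand of the gene, and runs over 250 bases before and 50 bases after the RefSeq start. The places are chr1:173205483-173205782 (minus strand) for TNFSF4, chr1:12166741-12167040 (plus strand) for TNFRSF1B, chr1:7940790-7941089 (minus strand) for TNFRSF9 and chr19:6530776-6531075 (plus strand) for TNFSF9. The RefSeq start lies 1781 bases inside the outermost GENCODE start of TNFSF4 and 2326 bases inside that of TNFRSF9. These windows flank an internal start of the gene as GENCODE draws it. In TNFSF9 the RefSeq start lies 27 bases inside the outermost start. In TNFRSF1B it lies 12 bases before it. Capitals mark matches, on either strand, to the NF-kB consensus, the AP-1 motif TGANTCA, the GC box GGGCGG and the TATA motif TATAAA.
TNFSF4: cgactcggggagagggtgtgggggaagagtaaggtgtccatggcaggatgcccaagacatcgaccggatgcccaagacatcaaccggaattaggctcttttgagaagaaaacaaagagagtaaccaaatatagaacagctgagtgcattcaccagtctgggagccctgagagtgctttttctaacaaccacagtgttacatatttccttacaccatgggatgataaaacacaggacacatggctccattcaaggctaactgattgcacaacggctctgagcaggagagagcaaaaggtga
TNFRSF1B: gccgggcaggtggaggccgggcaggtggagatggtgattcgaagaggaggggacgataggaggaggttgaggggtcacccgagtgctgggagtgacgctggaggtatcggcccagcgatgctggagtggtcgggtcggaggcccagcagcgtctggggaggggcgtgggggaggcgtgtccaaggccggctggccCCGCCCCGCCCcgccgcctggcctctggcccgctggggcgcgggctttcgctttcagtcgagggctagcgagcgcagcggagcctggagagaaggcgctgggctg
TNFRSF9: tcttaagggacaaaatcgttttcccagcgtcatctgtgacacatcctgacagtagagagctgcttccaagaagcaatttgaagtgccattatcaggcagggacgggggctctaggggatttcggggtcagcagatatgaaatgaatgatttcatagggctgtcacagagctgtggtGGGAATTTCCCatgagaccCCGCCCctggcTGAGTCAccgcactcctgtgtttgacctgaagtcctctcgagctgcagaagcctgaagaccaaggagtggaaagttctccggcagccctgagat
TNFSF9: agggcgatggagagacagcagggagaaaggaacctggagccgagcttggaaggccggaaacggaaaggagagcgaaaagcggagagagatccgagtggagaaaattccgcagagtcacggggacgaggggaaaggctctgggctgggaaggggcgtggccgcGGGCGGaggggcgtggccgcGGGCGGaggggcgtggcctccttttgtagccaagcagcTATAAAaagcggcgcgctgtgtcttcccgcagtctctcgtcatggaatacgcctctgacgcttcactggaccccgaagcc
The TNFSF4 window held none of the 4 motifs, and its GC content was 48.3%, below the median of 58.7% over all RefSeq promoters. The TNFRSF1B window, with 72.0% GC, held a pair of overlapping GC boxes at bases -55 to -45 from the start. In the TNFRSF9 window a pair of overlapping NF-kB matches, one on each strand, lay at bases -74 to -65 and -73 to -64, followed by a GC box at -55 to -50 and an AP-1 match at -44 to -38. The TNFSF9 window held a TATA match at -30 to -25 and GC boxes at -88 to -83 and -68 to -63. Of the 29 members with a promoter in the RefSeq table, 10 (34.5%) held the NF-kB consensus, against 11.3% of all 35116 promoters, 7 (24.1%) held the AP-1 motif, against 7.71%, 19 (65.5%) held the GC box, against 45.0%, and 6 (20.7%) held the TATA motif, against 11.5%. A match describes letters in a window and not a bound site.

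Read totals per sample ran between 11.8 and 82.2 M in the first experiment and between 23.4 and 32.3 M in the second. In CPM, each count divided by the TMM-scaled library size in M reads, VIM (2474 to 9742 CPM) and CD44 (183 to 921 CPM) were high in all 24 samples, and ESR1 (at most 1.84 CPM), PGR (at most 0.26 CPM) and CDH1 (at most 4.83 CPM) were low, while ERBB2 (67.0 to 98.6 CPM) and EPCAM (10.6 to 59.2 CPM), of the same list of 5, were present in every sample. Of the lists for other cells, ALB and CD68 stayed at or below 0.81 CPM, DCN at or below 0.39 CPM, PTPRC at or below 2.99 CPM and SFTPC at or below 3.49 CPM. Other genes of these lists were higher. SERPINA1 (14.2 to 212 CPM) and APOA1 (up to 23.8 CPM) are of the hepatocyte list. COL1A1 (7.76 to 111 CPM) and PDGFRB (5.24 to 36.8 CPM) are of the fibroblast list. PECAM1 (4.71 to 42.4 CPM), KDR (up to 4.51 CPM), CDH5 (up to 4.29 CPM) and TEK (up to 3.80 CPM) are of the endothelium list. AGER (1.77 to 8.28 CPM) is of the lung epithelium list. CD14 (up to 13.95 CPM), CSF1R (1.82 to 13.8 CPM), LYZ (up to 8.32 CPM) and S100A9 (up to 3.89 CPM) are of the leukocyte list. The leukocyte list as a whole summed to 57.4 to 414 CPM, nearly all of it LAPTM5 (50.5 to 389.8 CPM), and was at 250 to 414 CPM in C13 liver, 135 to 298 CPM in C13 lung and 215 to 307 CPM in C13 tumour. In the retransplanted samples SFTPC lay at 0.876 to 3.49 CPM in lung, against 0 to 0.0304 CPM in liver. PTPRC lay at 1.12 to 2.99 CPM in RT C2 lung, against 0.297 to 0.334 CPM in RT C2 liver. AGER went the other way, at 3.51 to 4.66 CPM in lung, against 4.67 to 7.36 CPM in liver. So did LAPTM5, at 62.7 to 150 CPM, against 175 to 288 CPM. The part of other cells in the RT C2 lung values was not tested. Since the counts are bulk values, fewer expressing cells and less RNA per cell cannot be told apart in any result. In the first experiment each mouse was also a sequencing run, apart from the C13 libraries of mouse 1, which came from runs 1, 2 and 3 in each organ. Mouse and run therefore cannot be told apart in subclone 2. In C13 the libraries of mouse 1 were summed over the runs, and an effect of run was not tested.

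Receptors were more abundant than ligands in these cells. Per kilobase of exon, the scale for comparing genes, the median was 2.34 CPM per kb over 24 receptors and 0.296 over 18 ligands of the first table, and 7 receptors and 2 ligands reached 10 CPM per kb. In CPM, which also grows with length, 5 of the 42 members averaged 100 CPM or more over the 18 samples, and all of them were receptors. Another 9 averaged between 10 and 100 CPM (3 ligands and 6 receptors), 12 between 1 and 10 CPM (5 ligands and 7 receptors) and 16 less than 1 CPM (10 ligands and 6 receptors). Thus 45.8% of the receptors and 16.7% of the ligands averaged at least 10 CPM. By CPM per kb the order was TNFRSF12A (136 CPM per kb), TNFRSF21 (66.1), TNFRSF10B (58.5), TNFRSF1A (54.0), LTBR (17.2) and TNFRSF10D (16.3), with the ligands TNFSF9 (14.7) and TNFSF10 (13.5) next. The 16 members below 1 CPM included the receptors TNFRSF4, TNFRSF8, TNFRSF13C, TNFRSF17, CD27 and EDAR and the ligands CD70, FASLG, LTA, TNFSF8, TNFSF11, TNFSF13B, TNFSF14, TNFSF18, EDA and the readthrough gene TNFSF12-TNFSF13, most of them genes of lymphocytes and other blood cells.

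**Figure D1:**
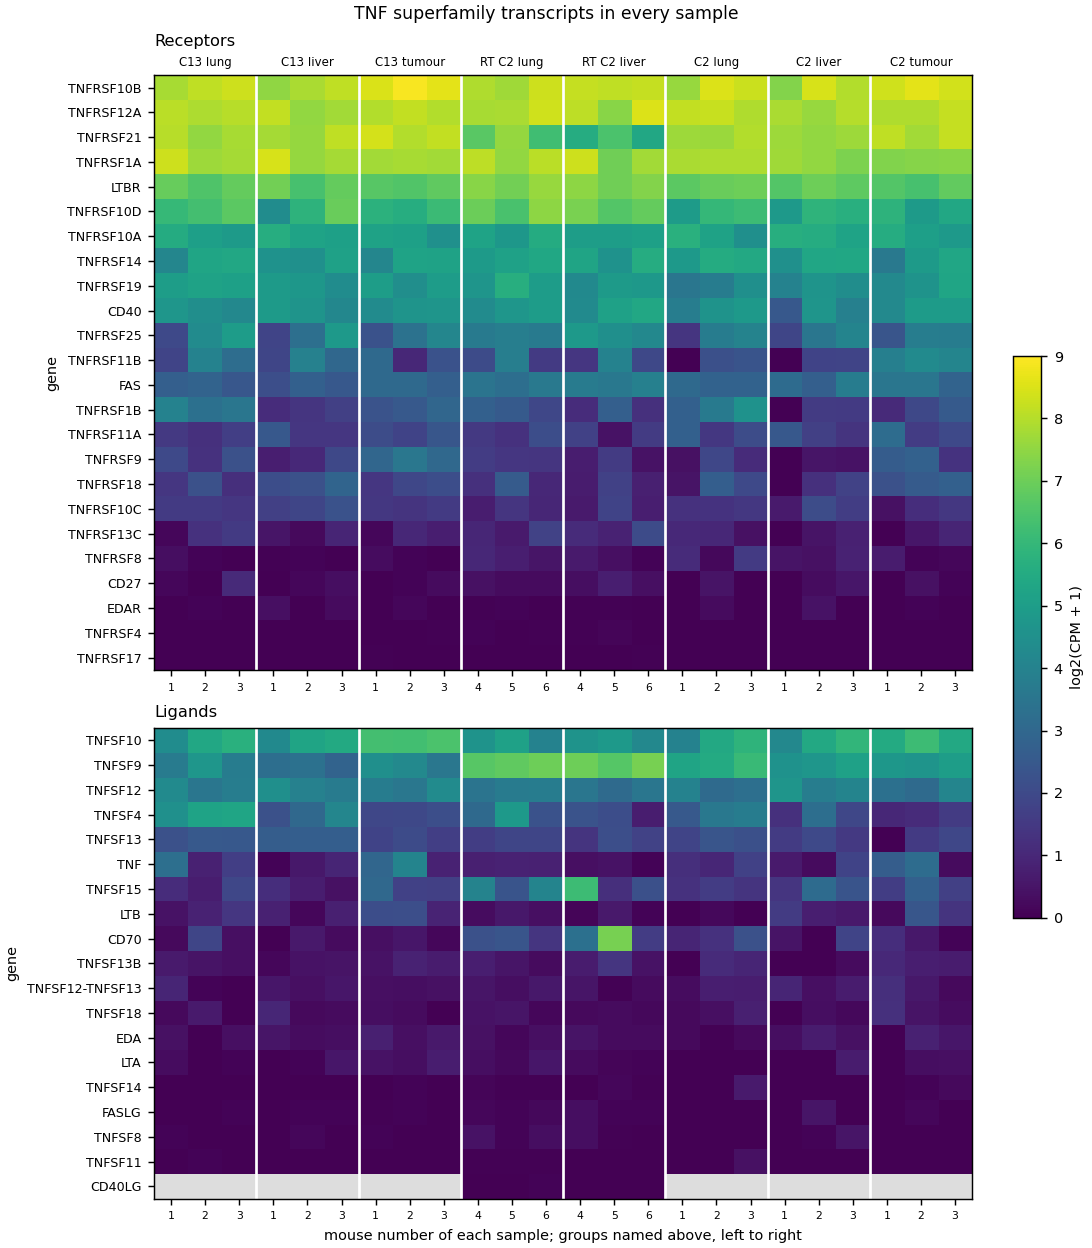
Level of each of the 43 members with a row in the tables, as log2(CPM + 1), in every sample, with receptors above and ligands below, rows ordered by mean level in the first experiment and columns by group and mouse. Grey marks a gene with no row in the first table. The upper rows of the receptor panel are bright in all groups, and most of the ligand panel is dark.

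The most abundant member per kilobase, TNFRSF12A (Fn14, the receptor of TWEAK), was nearly level over organs. It had 269, 236 and 258 CPM in C13 lung, 288, 185 and 214 CPM in C13 liver and 249.7, 284 and 250.5 CPM in C13 tumour, and 286, 305 and 239.7 CPM in C2 lung, 231, 194 and 252 CPM in C2 liver and 239.9, 245 and 294 CPM in C2 tumour, for mice 1, 2 and 3. The 6 groups overlapped, and no comparison passed the test. Its ligand TNFSF12 lay between 7.67 and 25.0 CPM in the 18 samples, and it shares 29.4% of its exonic bases with the readthrough gene TNFSF12-TNFSF13, so that its count is uncertain.

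TNFRSF1A, the death domain receptor of TNF and lymphotoxin alpha found on nearly all cells, had 320.1, 203 and 220.0 CPM in C13 lung, 354, 190.4 and 222 CPM in C13 liver and 216, 223 and 212 CPM in C13 tumour. In subclone 2 it had 228, 238 and 238 CPM in lung, 208, 184 and 148 CPM in liver and 155, 166 and 167 CPM in tumour. The 3 C2 lung samples stood above the 3 C2 tumour samples without overlap, by a log2 fold change of 0.53 ± 0.24 (SE), which did not pass (edgeR adjusted p = 0.500, and 0.159 with mouse as a replicate block). LTBR, the receptor of lymphotoxin alpha-beta and LIGHT, had 119.9, 91.8 and 115 CPM in C13 lung, 134, 81.7 and 116 CPM in C13 liver and 101, 93.4 and 110.1 CPM in C13 tumour, and 105, 122 and 129 CPM in C2 lung, 95.8, 128 and 108 CPM in C2 liver and 95.2, 82.6 and 115 CPM in C2 tumour. The groups overlapped, and no LTBR comparison passed. LTBR shares 6.72% of its exonic bases with SCNN1A on the other strand, and the kit does not mark strand.

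**Figure D2:**
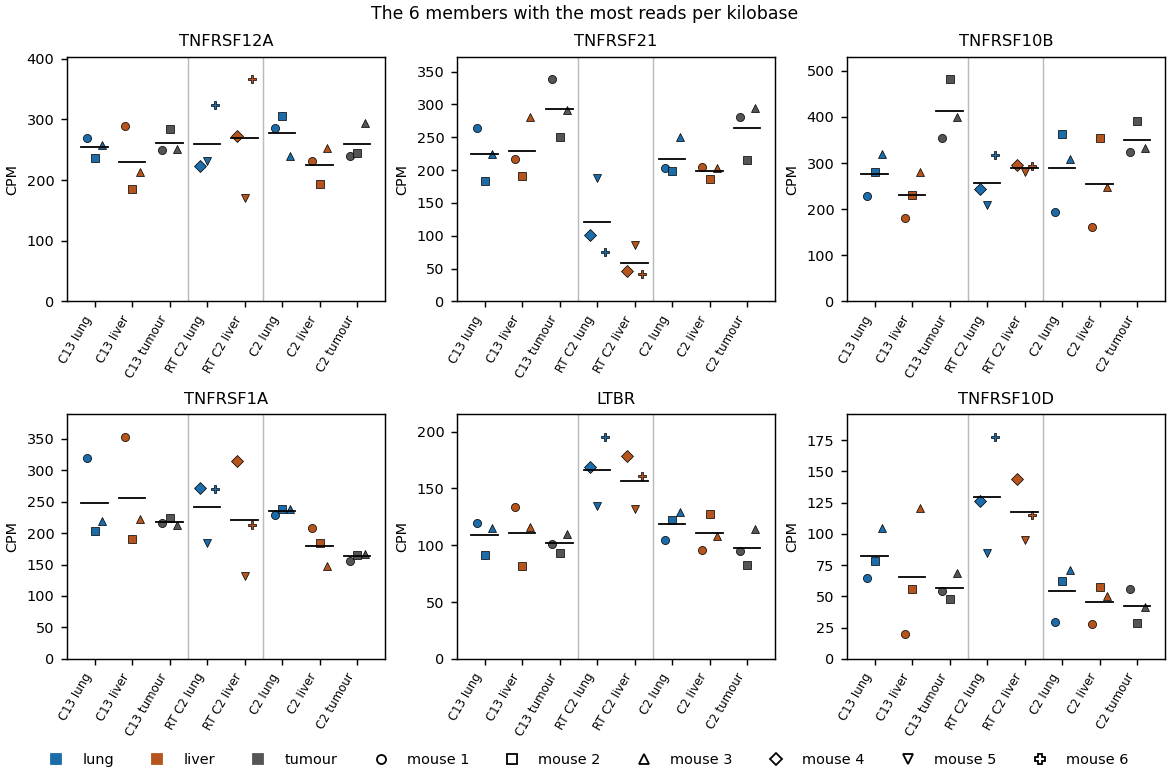
CPM in every sample (vertical axes, from 0) of the 6 members with the highest mean CPM per kilobase, by group; symbols are mice, colours are organs, black lines are means of 3 samples and grey lines part subclone 13, retransplanted subclone 2 and subclone 2. The groups overlap in most panels, and the retransplanted samples of TNFRSF21 lie low, between 41.6 and 188 CPM.

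Across the 14 comparisons, few members differed by the test that uses group means alone. The test was edgeR's quasi-likelihood F test with Benjamini-Hochberg adjustment over all genes, and it covered 33 members in the first experiment (13 ligands and 20 receptors) and 30 in the second. In C13 lung against C13 tumour 1 of 33 members passed at an adjusted p under 0.05 (TNFSF4, higher), against 0.419% of all genes. In C13 liver against C2 liver 1 of 33 passed (TNFSF9, lower), against 0.247% of all genes. In the other 12 comparisons 0 members passed; of all genes, 0.436% passed in C2 lung against tumour, 0.287% in C2 liver against tumour, 0.023% in C2 lung against liver, 0.385% in C13 liver against tumour, 0.109% in C13 tumour against C2 tumour, 0.184% in C13 lung against C2 lung, and 0.0% in the rest. At an unadjusted p under 0.05, 7, 4, 5, 2, 7 and 4 members of 33 stood in C2 lung against tumour, C2 liver against tumour, C2 lung against liver, and the same 3 comparisons of C13, where 9.32%, 6.65%, 9.29%, 7.76%, 5.98% and 4.55% of all genes did. Between subclones the unadjusted counts were 1 in tumours, 5 in lungs and 6 in livers, against 4.36%, 7.03% and 7.23% of all genes, and in RT C2 lung against liver it was 5 of 30, against 12.5%.

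The samples of a mouse deviated together, and a fit with mouse as a replicate block had a smaller spread, so its values are given beside each result that they change. With the block, 3 members passed in C2 lung against tumour (3.05% of all genes), 1 in C2 liver against tumour (1.68%), 1 in C2 lung against liver (2.95%), 2 in C13 lung against tumour (2.89%), 2 in C13 liver against tumour (1.83%), 1 in C13 lung against liver (0.276%), 3 in C13 lung against C2 lung (1.54%), 1 in C13 liver against C2 liver (1.5%) and 1 in RT C2 lung against liver (0.479%), while 0 passed in C13 tumour against C2 tumour (0.505%). DESeq2 called 2, 1, 1, 1, 1 and 1 members in the first 6 of these, where 2.08%, 1.4%, 1.45%, 1.85%, 1.41% and 0.304% of all genes passed, and 2, 2, 1 and 0 in the last 4, where 1.26%, 1.53%, 2.26% and 0.482% did. The 15 results with the block concerned 9 genes: the ligands TNFSF4, TNFSF9, TNFSF10 and LTB, and the receptors TNFRSF1B, TNFRSF9, TNFRSF10B, TNFRSF19 and TNFRSF21. The tests of a difference between the subclones in an organ effect, and of a difference between the experiments in the lung effect, passed for 0 members without the block, with it, and with DESeq2, where of all genes 0.00574% passed with the block and 0.0172% with DESeq2 for the liver effect against tumour, 0.023% with DESeq2 for lung against liver, 0.058% with DESeq2 between the experiments, and 0.0% in the rest.

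TNFSF4, the ligand OX40L (chr1:173183734-173207313), was highest in lung metastases of both subclones. In subclone 13 it had 21.7, 36.2 and 38.1 CPM in lung of mice 1, 2 and 3, 3.69, 7.20 and 16.4 CPM in liver, and 2.81, 2.87 and 3.50 CPM in tumour. In subclone 2 it had 4.76, 11.04 and 12.8 CPM in lung, 1.35, 8.58 and 2.80 CPM in liver, and 0.991, 1.15 and 1.96 CPM in tumour. Lung was above tumour in 3 of 3 mice and without overlap in each subclone, and all C13 lung samples were above all other samples of the first experiment. C13 lung exceeded C13 tumour by a log2 fold change of 3.38 ± 0.63 (SE; edgeR adjusted p = 0.0203, and 0.000406 with the mouse block). C2 lung against C2 tumour gave 2.77 ± 0.63, which passed with the block (adjusted p = 0.00331) and not without it (0.0667). In the fit on group means the C13 call held without lung of mouse 1 (adjusted p = 0.0437) and was lost without any other single sample: 0.0861 without lung of mouse 2, 0.102 without lung of mouse 3, and 0.0988, 0.116 and 0.132 without tumour of mouse 1, 2 or 3. The test of a difference between the subclones in this effect did not pass (0.61 ± 0.84, adjusted p = 1).

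The mean of the liver samples of TNFSF4 lay between those of lung and tumour in each subclone. In C2 the liver samples overlapped both the lung and the tumour samples. The log2 fold change against tumour was 1.56 ± 0.60 in C13 liver and 1.63 ± 0.61 in C2 liver, and neither passed (edgeR adjusted p = 0.544 and 0.488, with the block 0.155 and 0.120). C13 lung was above C13 liver by 1.82 ± 0.59 in 3 of 3 mice, short of the threshold (adjusted p = 0.805, and 0.0609 with the block). C13 lung was also above C2 lung without overlap, by 1.74 ± 0.59, which passed with the mouse block (adjusted p = 0.0352) and not without it (0.411). Its receptor TNFRSF4 (OX40), known from activated T cells, had 4 counts in the 18 samples together and was not tested. The comparisons of lung and of liver with tumour share their tumour samples.

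TNFSF9, the ligand 4-1BBL (chr19:6530999-6535928), had lower values in subclone 13 than in subclone 2 in all 3 organs, and the difference passed in liver. It had 8.44, 9.25 and 6.37 CPM in C13 liver, against 22.8, 25.7 and 34.9 CPM in C2 liver, a log2 fold change of -1.79 ± 0.34 (edgeR adjusted p = 0.0338, and 0.00684 with the block). Without the block, this call was lost when any 1 of the 6 samples was left out. The edgeR adjusted p was 0.126, 0.109 and 0.168 without C13 liver of mouse 1, 2 or 3, and 0.0512, 0.0589 and 0.116 without C2 liver of mouse 1, 2 or 3. The call was also lost when 1 library stood for each C13 sample of mouse 1 (0.118). In lung it had 12.4, 25.8 and 12.8 CPM in C13, against 37.0, 44.1 and 68.2 CPM in C2, a log2 fold change of -1.55 ± 0.34, which passed with the block (adjusted p = 0.0152) and not without it (0.0645). In tumour it had 21.2, 17.8 and 10.7 CPM in C13, against 26.1, 24.1 and 31.6 CPM in C2, and this difference of -0.72 ± 0.33 did not pass (adjusted p = 1, and 0.498 with the block). The subclones did not overlap in any of the 3 organs. Lung was above liver without overlap in each subclone, by 1.08 ± 0.34 in C13 and 0.84 ± 0.33 in C2, and neither passed (adjusted p = 0.786 and 0.413, with the block 0.178 and 0.140).

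TNFRSF9 (4-1BB, chr1:7915894-7943165), the receptor of TNFSF9, known from activated T cells, averaged less in metastases than in tumours of both subclones. It had 0.695, 1.03 and 2.82 CPM in C13 liver and 3.01, 1.45 and 3.71 CPM in C13 lung, against 6.88, 10.9 and 7.32 CPM in C13 tumour. In subclone 2 it had 0, 0.436 and 0.346 CPM in liver and 0.323, 2.80 and 1.15 CPM in lung, against 5.14, 5.92 and 1.52 CPM in tumour. Liver lay below tumour without overlap in each subclone, and lung did so in C13. The 0 was that of C2 liver of mouse 1, with 17.5 M reads, where 3 counts would be 0.192 CPM. C2 liver against C2 tumour gave a log2 fold change of -3.83 ± 0.89, which passed with the block (edgeR adjusted p = 0.0124) and not without it (0.102). C13 liver against tumour gave -2.48 ± 0.84 and did not pass (adjusted p = 0.384, and 0.101 with the block).

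TNFRSF1B (TNFR2, chr1:12167003-12209228), the TNF receptor without a death domain, was highest in lung samples of both subclones. It had 14.9, 8.94 and 10.7 CPM in C13 lung, 1.20, 1.63 and 2.30 CPM in C13 liver and 3.91, 4.76 and 6.80 CPM in C13 tumour. In subclone 2 it had 5.80, 12.1 and 23.0 CPM in lung, 0, 1.98 and 1.90 CPM in liver and 1.11, 2.87 and 4.84 CPM in tumour, with the 0 again in mouse 1. Lung exceeded liver in 3 of 3 mice of each subclone, and the groups did not overlap. The log2 fold change of lung against liver was 3.32 ± 0.81 in C2 and 2.76 ± 0.80 in C13; both passed with the block (edgeR adjusted p = 0.00771 and 0.0433) and neither without it (0.166 and 0.609). Against tumour, C2 lung was higher by 2.19 ± 0.78 (adjusted p = 0.0484 with the block, 0.325 without it), and C13 lung was higher by 1.16 ± 0.75, which did not pass (0.261 with the block, 0.860 without it). The leukocyte genes moved both ways. The sum of the list had a median of 198 CPM in C13 lung, against 268 CPM in C13 liver and 232 CPM in C13 tumour. It had a median of 77.9 CPM in C2 lung, against 119 CPM in C2 liver and 104 CPM in C2 tumour. Most of it was LAPTM5. ITGAM lay at 0.189 to 0.519 CPM in C13 lung, against 0 to 0.121 CPM in C13 liver and 0 to 0.159 CPM in C13 tumour. CD68 lay at 0.566 to 0.667 CPM in C13 lung, against 0.328 to 0.423 CPM in C13 liver and 0.216 to 0.461 CPM in C13 tumour. CD14 lay at 3.65 to 10.1 CPM in C13 lung, against 0.819 to 1.51 CPM in C13 tumour. In C2 it lay at 1.90 to 4.91 CPM in lung, against 0 to 1.45 CPM in tumour. Lung and liver overlapped in CD14 in each subclone. CSF1R went the other way, at 2.33 to 7.88 CPM in C13 lung, against 11.2 to 13.3 CPM in C13 tumour. In C2, lung overlapped liver and tumour in ITGAM, CD68 and CSF1R. The part of these genes' source cells in the lung values of TNFRSF1B and TNFSF4 was not tested.

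**Figure D3:**
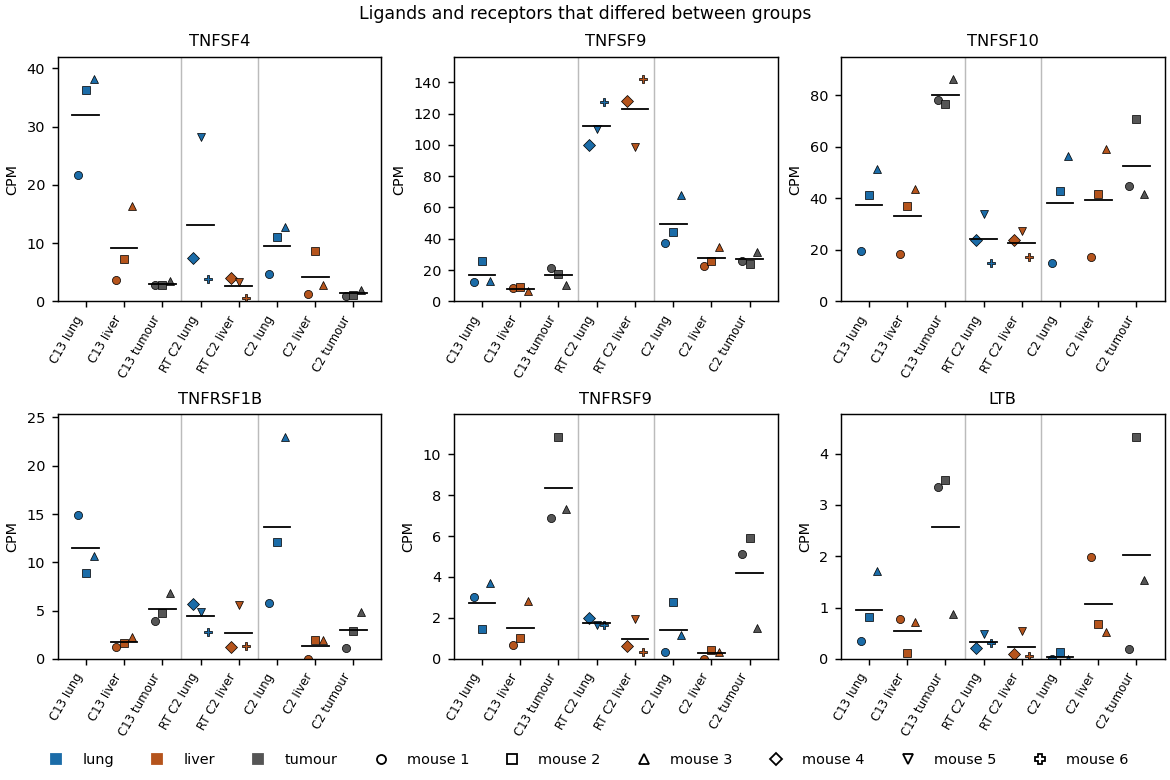
CPM in every sample (vertical axes, from 0) of 6 of the members that passed a test, by group; symbols are mice, colours are organs, black lines are means of 3 samples and grey lines part subclone 13, retransplanted subclone 2 and subclone 2. TNFSF4 and TNFRSF1B have higher means in lung than in tumour in both subclones, TNFRSF9, TNFSF10 and LTB have their highest mean in C13 tumour, and TNFSF9 has its highest means in the retransplanted samples.

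TNF and the lymphotoxin genes LTA and LTB were low and uneven. TNF, a ligand of TNFRSF1A and TNFRSF1B, had 8.85, 0.755 and 2.1 CPM in C13 lung, 0.0678, 0.484 and 0.919 CPM in C13 liver and 6.88, 15.7 and 0.836 CPM in C13 tumour, and 1.29, 0.951 and 2.37 CPM in C2 lung, 0.577, 0.187 and 2.49 CPM in C2 liver and 5.33, 8.03 and 0.207 CPM in C2 tumour. The tumours of mice 1 and 2 were high and that of mouse 3 low in both subclones, and C13 liver against tumour, at -4.09 ± 1.37, did not pass with edgeR (adjusted p = 0.381, and 0.178 with the block) but passed with DESeq2 (0.0319); TNF was singled out after its values were seen. LTB, the membrane subunit of lymphotoxin alpha-beta, had 0, 0.131 and 0 CPM in C2 lung, which is 7 counts in all, against 0.186, 4.33 and 1.54 CPM in C2 tumour, which is 138 counts. The groups did not overlap, but the tumour of mouse 1, at 3 counts, lay close to the lung samples. The fitted log2 fold change of -4.86 ± 1.28 passed with the block (edgeR adjusted p = 0.0433) and not without it (0.128), and its size depends on the prior count because a pair of the lung samples was at 0. LTB had 0.351, 0.818 and 1.70 CPM in C13 lung, 0.779, 0.121 and 0.722 CPM in C13 liver, 3.35, 3.48 and 0.875 CPM in C13 tumour and 1.99, 0.686 and 0.519 CPM in C2 liver. LTA stayed at or below 0.637 CPM in the 18 samples.

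TNFSF10 (TRAIL, chr3:172505508-172523507), the ligand that triggers death receptors, was lower in C13 metastases than in C13 tumours. It had 19.6, 41.3 and 51.6 CPM in C13 lung and 18.5, 37.0 and 43.5 CPM in C13 liver, against 78.1, 76.6 and 86.2 CPM in C13 tumour. Every metastasis sample of C13 lay below every tumour sample, and mouse 1 was the lowest in both organs. The log2 fold change was -1.29 ± 0.48 in liver and -1.10 ± 0.48 in lung; both passed with the mouse block (edgeR adjusted p = 0.0161 and 0.0271) and neither without it (0.510 and 0.561). In subclone 2 it had 15.1, 42.7 and 56.6 CPM in lung, 17.3, 41.7 and 59.2 CPM in liver and 44.8, 70.7 and 41.7 CPM in tumour, where the groups overlapped. The test of the difference between the subclones gave -0.88 ± 0.67 for the liver effect (adjusted p = 1).

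The death receptor TNFRSF10B (DR5) followed with smaller differences. It had 179.8, 230.5 and 281 CPM in C13 liver and 228, 281 and 320.4 CPM in C13 lung, against 355, 481 and 400.0 CPM in C13 tumour. Every C13 metastasis sample was below every C13 tumour sample. The log2 fold change of liver was -0.84 ± 0.29, which passed with the block (edgeR adjusted p = 0.0248) and not without it (0.410), and that of lung was -0.58 ± 0.29 and did not pass (0.128 with the block, 0.683 without it). In subclone 2 it had 160.5, 354 and 249 CPM in liver and 195, 363 and 308 CPM in lung, against 324, 391 and 333 CPM in tumour.

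TNFRSF10D, a decoy receptor of TRAIL, had 64.4, 78.3 and 105 CPM in C13 lung, 19.9, 55.6 and 121 CPM in C13 liver and 54.6, 47.6 and 68.6 CPM in C13 tumour, and 29.4, 62.6 and 71.4 CPM in C2 lung, 27.5, 57.4 and 50.2 CPM in C2 liver and 56.0, 28.99 and 41.1 CPM in C2 tumour. These groups overlapped and no comparison passed. TNFRSF10A (DR4) lay between 21.3 and 51.3 CPM and TNFRSF10C, the other membrane decoy, between 0.31 and 3.81 CPM in the 18 samples. The 4 genes are neighbours of similar sequence on chromosome 8, so reads can be shared among them, and how reads with several places were counted is not given in the sources used here. TNFRSF11B (osteoprotegerin), a soluble decoy for TRAIL and RANKL, had 0, 3.58 and 4.01 CPM in C2 lung and 0, 2.53 and 2.61 CPM in C2 liver, against 13.9, 19.0 and 16.1 CPM in C2 tumour. The C2 metastases did not overlap the C2 tumours, but the log2 fold changes of -2.67 ± 1.11 in lung and -3.19 ± 1.12 in liver did not pass (edgeR adjusted p = 0.434 and 0.428, with the block 0.0809 and 0.0606). In subclone 13 the gene had 2.60, 14.9 and 8.38 CPM in lung, 2.73, 14.3 and 7.09 CPM in liver and 7.45, 1.02 and 3.86 CPM in tumour, with overlap. It was singled out after its values were seen.

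**Figure D4:**
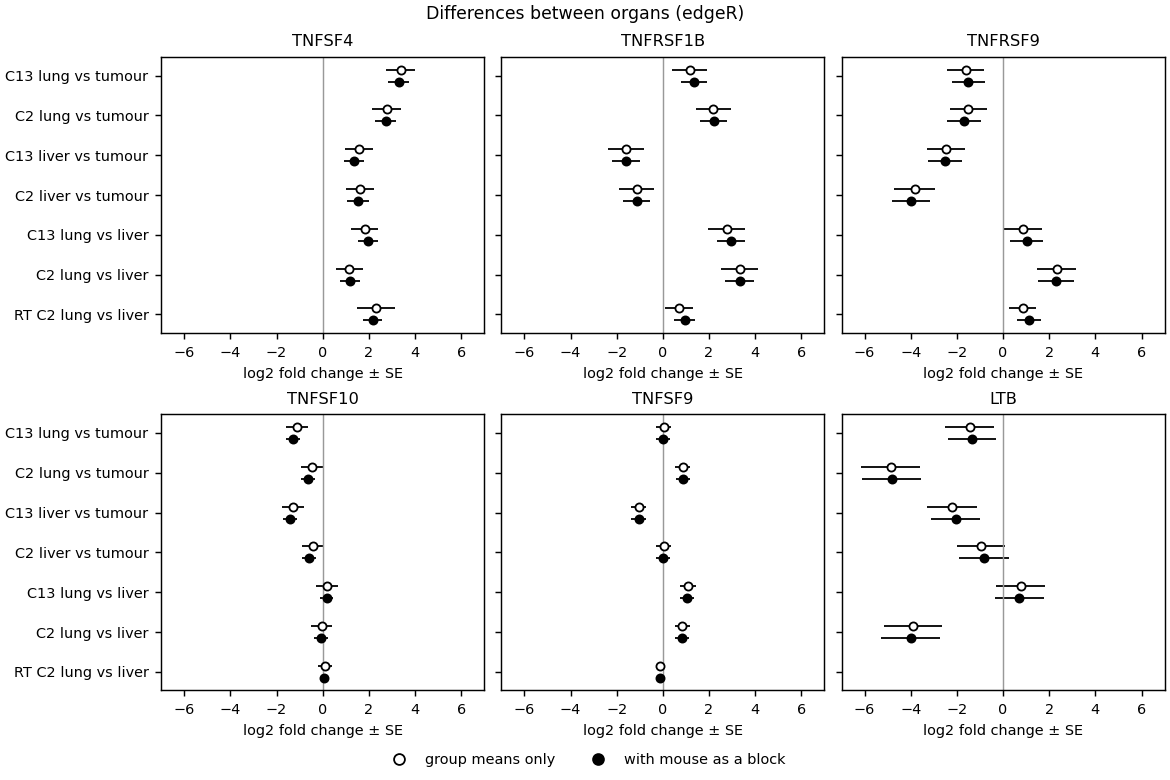
Log2 fold change between organs with its SE (horizontal axes) for 6 members in 7 comparisons (rows), from edgeR with group means only (open circles) and with mouse as a block (filled circles); LTB was not tested in the retransplantation experiment. The block changes the point estimates little and shortens most of the bars.

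TNFRSF21 (DR6), a death domain receptor with no TNF ligand established, was high in all samples of the first experiment. It had 264, 183 and 224 CPM in C13 lung, 217, 192 and 280.2 CPM in C13 liver and 338, 251 and 291 CPM in C13 tumour, and 203, 198 and 249.7 CPM in C2 lung, 205, 187 and 203 CPM in C2 liver and 282, 215 and 294 CPM in C2 tumour. In the second experiment it had 102, 188 and 74.9 CPM in RT C2 lung, against 46.9, 85.7 and 41.6 CPM in RT C2 liver, for mice 4, 5 and 6. Lung was above liver in 3 of 3 mice, though mouse 5 was high in both organs and the groups overlapped. The log2 fold change of 1.07 ± 0.39 passed with mouse as a block (edgeR adjusted p = 0.0456) and not without it (0.322).

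TNFRSF19 (TROY), a receptor known from the nervous system and epithelia, was higher in lung samples of subclone 13 than of subclone 2 in the first experiment. It had 31.5, 35.4 and 33.6 CPM in C13 lung, against 10.5, 12.8 and 21.5 CPM in C2 lung, and the groups did not overlap. The log2 fold change of 1.17 ± 0.32 passed with the block (edgeR adjusted p = 0.0345) and not without it (0.207). In the other organs the subclones overlapped, with 28.8, 26.3 and 19.8 CPM in C13 liver against 15.01, 24.4 and 20.5 CPM in C2 liver, and 31.0, 20.9 and 30.5 CPM in C13 tumour against 17.9, 23.5 and 38.6 CPM in C2 tumour. RT C2 lung, which was normalized separately, had 25.0, 49.1 and 30.5 CPM, a range that holds the C13 lung values.

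Other members of middle abundance are given by their range over the 18 samples of the first experiment. TNFRSF14 (HVEM), the receptor of LIGHT, lay at 11.4 to 45.9 CPM, CD40, known from B cells and antigen-presenting cells, at 4.55 to 29.6 CPM, and FAS, the death receptor of FASLG, at 3.47 to 12.7 CPM. TNFRSF11A (RANK) lay at 1.38 to 8.11 CPM and TNFRSF18 (GITR) at 0 to 6.44 CPM. None of these passed an adjusted edgeR test in any comparison, with or without the block, and FAS shares 8.93% and TNFRSF14 13.4% of its exonic bases with a gene on the other strand. FASLG stayed at or below 0.411 CPM and TNFSF13 (APRIL) at or below 5.45 CPM, and 55.5% of the exonic bases of TNFSF13 also belong to the readthrough gene. TNFSF15 had 1.29, 0.665 and 0.328 CPM in C13 liver, against 1.60, 7.93 and 4.02 CPM in C2 liver, a difference of -2.53 ± 0.75 (log2) that passed with DESeq2 (adjusted p = 0.0309) and not with edgeR (0.249, and 0.0993 with the block).

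The retransplanted cells of subclone 2 were described at the same members. TNFSF4 had 7.48, 28.2 and 3.83 CPM in RT C2 lung of mice 4, 5 and 6, against 3.95, 3.40 and 0.655 CPM in RT C2 liver. Lung was above liver in 3 of 3 mice, while the groups overlapped, and the log2 fold change of 2.31 ± 0.83 did not pass (edgeR adjusted p = 0.322, and 0.0897 with the block). TNFRSF1B had 5.73, 4.80 and 2.73 CPM in RT C2 lung, against 1.23, 5.56 and 1.37 CPM in RT C2 liver, and TNFRSF9 had 2.00, 1.67 and 1.63 CPM, against 0.636, 1.95 and 0.343 CPM. In both genes lung was above liver in 2 of 3 mice and mouse 5 was the exception. TNFSF9 had 99.8, 109.9 and 127 CPM in RT C2 lung, against 128, 98.6 and 142 CPM in RT C2 liver, and TNFSF10 had 23.9, 34.1 and 14.97 CPM, against 23.7, 27.4 and 17.2 CPM. The groups of both overlapped. Of the rest, TNFRSF19 had 25.0, 49.1 and 30.5 CPM in RT C2 lung, against 18.5, 28.8 and 26.8 CPM in RT C2 liver, and LTB had at most 0.547 CPM.

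Of the 6 most abundant receptors, TNFRSF12A had 223, 231 and 323 CPM in RT C2 lung, against 272, 169.7 and 366 CPM in RT C2 liver. TNFRSF10B had 243, 209.6 and 317 CPM in lung, against 295, 280.1 and 293 CPM in liver, and TNFRSF1A had 272, 184 and 269.7 CPM, against 315, 132 and 213 CPM. LTBR had 169, 135 and 196 CPM, against 178, 132 and 161 CPM, and TNFRSF10D had 126, 84.7 and 178 CPM, against 144, 94.8 and 115 CPM. All 5 overlapped between the organs. The tables of the experiments were normalized separately, so a level can only be set side by side: TNFSF9 lay at 98.6 to 142 CPM in the retransplanted samples and at 22.8 to 68.2 CPM in subclone 2 of the first experiment, and TNFRSF21 at 41.6 to 188 CPM and at 187 to 294 CPM. All retransplanted libraries came from a sequencing run of their own, run 4, so experiment, mice and run cannot be told apart in these levels. The median log2 fold change of RT C2 lung against liver was 0.09 over the 30 members tested and -0.03 over all genes.

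Several members were uneven between the samples of a group. None of them passed edgeR's test with the filter on low counts, with or without the block, in the comparisons given, and they were singled out after their values were seen. CD70, the ligand of CD27, had 3.76, 4.20 and 1.59 CPM in RT C2 lung, against 8.91, 142 and 2.00 CPM in RT C2 liver, and at most 3.68 CPM in the first experiment. The 1 liver sample of mouse 5, with 4662 counts, stood far above all others. Its lung against liver difference of -3.99 ± 1.35 did not pass with edgeR (adjusted p = 0.297, and 0.261 with the block) or DESeq2 (0.144), but passed with edgeR without the filter (5.66e-06). TNFSF15 (TL1A) had 15.1, 4.09 and 15.8 CPM in RT C2 lung, against 71.2, 1.34 and 3.55 CPM in RT C2 liver, with the high sample in mouse 4. In the first experiment it had 1.29, 0.665 and 0.328 CPM in C13 liver, against 1.60, 7.93 and 4.02 CPM in C2 liver. This difference of -2.53 ± 0.75 on the log2 scale did not pass with edgeR (adjusted p = 0.249, and 0.0993 with the block) but passed with DESeq2 (0.0309). Its receptor TNFRSF25 (DR3) had 11.9, 13.5 and 11.9 CPM in RT C2 lung, against 28.2, 21.2 and 17.3 CPM in RT C2 liver, the one tested member whose lung samples were all below its liver samples there (9.13% of all genes were). This difference, -0.84 ± 0.22, passed with DESeq2 (adjusted p = 0.0464) and not with edgeR (0.221, and 0.147 with the block). In the first experiment TNFRSF25 followed the mouse: it had 1.61 to 4.21 CPM in the 6 samples of mouse 1 and 8.71 to 30.5 CPM in the 12 samples of mice 2 and 3. The 9 C13 libraries of mouse 1, from runs 1, 2 and 3, lay at 1.84 to 4.05 CPM, scaled by total counts. TNF was the one tested member whose RT C2 lung samples, at 0.751, 0.819 and 0.758 CPM, were all above the RT C2 liver samples, at 0.297, 0.365 and 0.0624 CPM (9.98% of all genes were).

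**Figure D5:**
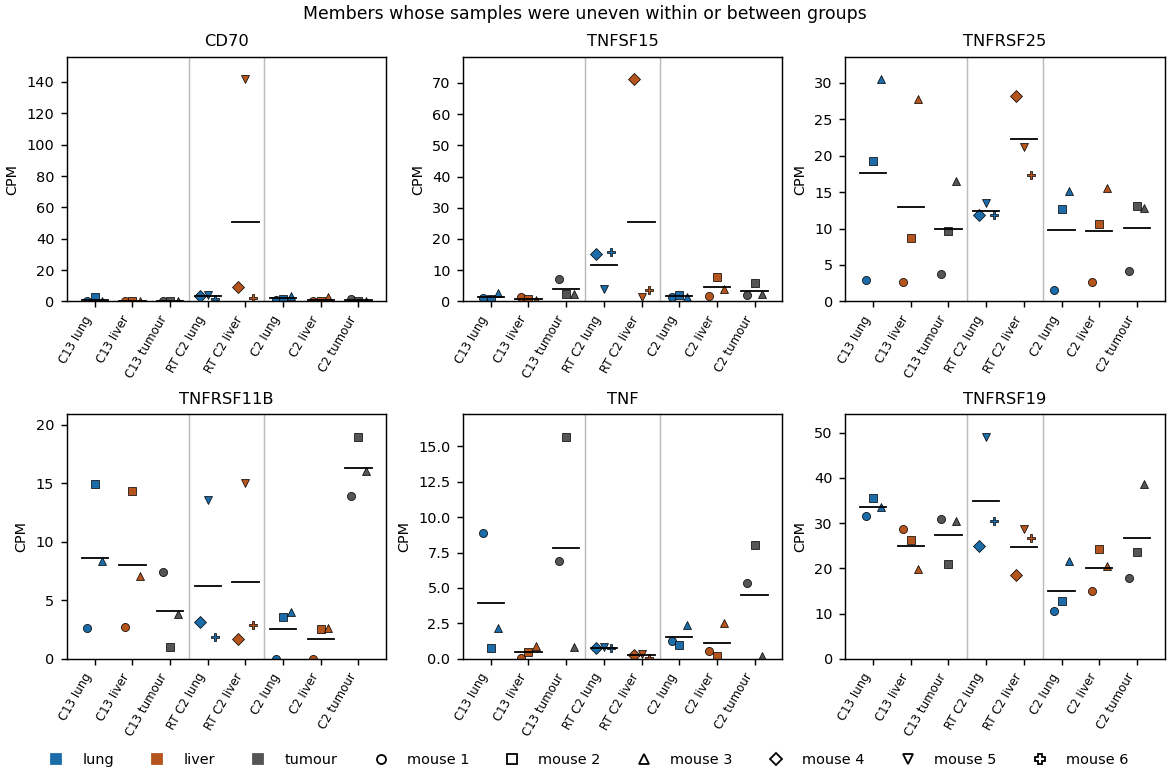
CPM in every sample (vertical axes, from 0) of 6 members, by group; symbols are mice, colours are organs, black lines are means of 3 samples and grey lines part subclone 13, retransplanted subclone 2 and subclone 2. The highest CD70 and TNFSF15 values are each that of 1 retransplanted liver sample, and the circles of mouse 1 are the lowest TNFRSF25 values of each group of the first experiment. TNFSF15 was also at 15.1 and 15.8 CPM in RT C2 lung of mice 4 and 6, against at most 7.93 CPM in the first experiment.

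Members whose samples did not overlap between the groups were counted too, beside the share of all genes that did the same. In C13 lung against tumour 4 members were higher in all samples (TNFRSF19, TNFRSF1B, TNFSF13 and TNFSF4; 7.37% of all genes) and 4 lower (TNFRSF10B, TNFRSF11A, TNFRSF9 and TNFSF10; 9.91%). In C13 liver against tumour 3 were higher (5.22%) and 7 lower (7.97%), and in C13 lung against liver 4 were higher (5.23%) and 2 lower (5.53%). In C2 lung against tumour 4 were higher (7.33%) and 3 lower (7.49%), in C2 liver against tumour 0 were higher (4.32%) and 5 lower (5.1%), and in C2 lung against liver 3 were higher (5.92%) and 2 lower (6.1%). Both subclones had TNFSF4 and TNFRSF1B higher in lung than tumour, TNFRSF9 lower in liver than tumour, and TNFSF9 and TNFRSF1B higher in lung than liver, where 2.55%, 2.05% and 1.31% of all genes did the same in both subclones. Between the subclones, C13 had 4 members higher and 3 lower in tumour (9.36% and 4.16%), 3 and 1 in lung (6.6% and 5.9%), and 4 and 3 in liver (5.52% and 4.37%). The median log2 fold change of the 33 members was 0.08 in C13 lung against tumour, -0.19 in C13 liver against tumour and 0.25 in C13 lung against liver (0.17 with the block), where that of all genes was 0.03, 0.02 and 0.01. In C2 the medians of the same comparisons were -0.16, -0.14 and 0.30 over the members and 0.05, 0.05 and 0.01 over all genes.

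The genes that act directly below these receptors were counted in a list of 43 adaptors, kinases, ubiquitin enzymes, caspases, inhibitors and sheddases, of which 41 were tested. Without the mouse block 1 of 41 passed in any comparison: RIPK1, the kinase that joins TNFRSF1A to NF-kB or to cell death, fell in C13 liver against tumour, where 0.385% of all genes passed. It had 62.9, 67.4 and 68.6 CPM in C13 liver and 76.6, 70.0 and 75.1 CPM in C13 lung, against 112.6, 119.6 and 202.5 CPM in C13 tumour. The liver samples were all below the tumour samples, and the log2 fold change was -1.13 ± 0.23 (edgeR adjusted p = 0.0387, and 0.00587 with the block). Without the block, the call held without C13 tumour of mouse 1 (adjusted p = 0.0351) and was lost without any other single sample: 0.177, 0.148 and 0.115 without liver of mouse 1, 2 or 3, and 0.0561 and 0.264 without tumour of mouse 2 or 3. In subclone 2 RIPK1 had 73.3, 75.7 and 57.8 CPM in liver and 76.9, 78.8 and 72.0 CPM in lung, against 102.9, 92.0 and 142.6 CPM in tumour, where the difference of liver, -0.71 ± 0.23, did not pass (adjusted p = 0.351, and 0.114 with the block).

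With the block, 5 of 41 fell in C13 liver against tumour (0 rose; 1.83% of all genes passed) and 4 of 41 in C13 lung against tumour (0 rose; 2.89% of all genes passed), and RIPK1, TRAF3 and the A20 partner TNIP1 were in both counts, which share their tumour samples. TRAF3, an adaptor that restrains the noncanonical NF-kB pathway, fell by 0.97 on the log2 scale in C13 liver and by 0.88 in C13 lung (edgeR adjusted p = 0.0128 and 0.0200 with the block). It also fell by 0.76 in C2 lung against tumour (adjusted p = 0.0405 with the block), as did the TNF sheddase ADAM17 (by 0.74, adjusted p = 0.0365 with the block), 2 of 41 in a comparison where 3.05% of all genes passed. BIRC3, an inhibitor of apoptosis induced by NF-kB, fell by 2.57 in C13 liver (adjusted p = 0.0193 with the block), with 22.7, 63.8 and 81.7 CPM, against 348, 513 and 129 CPM in C13 tumour. The kinase MAP3K14 fell in C13 liver too, by a log2 fold change of -1.18 ± 0.24 with the block (edgeR adjusted p = 0.0111, and 0.510 without it). MAP3K14 had 18.7, 20.8 and 42.4 CPM in C13 liver, against 39.9, 77.2 and 70.4 CPM in C13 tumour, with overlap. Activity of the noncanonical NF-kB pathway was not tested. In C2 lung against liver 1 of 41 rose with the block (2.95% of all genes passed): TRAF4, an adaptor of the TRAF family, had 95.3, 172 and 174 CPM in lung, against 54.6, 103 and 99.6 CPM in liver, by 0.78 ± 0.21 (edgeR adjusted p = 0.0476, and 0.518 without the block). In RT C2 lung against liver 1 of 41 rose with the block (0.479% of all genes passed): TNFAIP3 (A20), a feedback inhibitor of NF-kB, had 297, 347 and 334 CPM in lung, against 85.0, 144 and 79.2 CPM in liver, by 1.71 ± 0.21 (adjusted p = 0.0244). These members of the list, other than RIPK1, were named after their values were seen.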

How the data were processed

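The deposited tables hold raw read counts per Ensembl gene and library (30 libraries). The authors made them with bcl2fastq 2.15.0.4, cutadapt, STAR and featureCounts on GRCh38, per the submitters' processing notes, which give no role or order; the annotation is not given in the sources used here. Per the labels' protocols, total RNA was prepared with a DNase step and the TruSeq v2 kit, which does not mark strand. The 9 C13 libraries of mouse 1 were summed to 3 samples, so that 18 and 6 samples entered. Symbols and exon lengths came from GENCODE 29, which held all row IDs.

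The counts were fitted in R 4.3.3 with edgeR 4.0.16 (filterByExpr, TMM, quasi-likelihood F test, Benjamini-Hochberg adjustment over 17418 genes for the first table, 17549 for the retransplanted samples and 18950 for a joint fit), tested on simulated data beforehand, with all groups of an experiment in 1 fit and no mouse term. The simulated data held no mouse effect, and the fit with the mouse block was not tested on them. CPM are TMM-scaled; SE is the log2 fold change over the square root of F. DESeq2 1.42.0, RLE scaling, no filter, 1 library per C13 sample of mouse 1, a mouse block, and leaving out samples were the alternatives. The mouse pairs the samples, since those of a mouse come from 1 animal. In the first experiment the median correlation of their deviations from group means was 0.44 over 45 pairs, against -0.30 over 90 pairs of different mice. In the second it was 0.34 over 3 pairs, against -0.23 over 6 pairs. Subtracting group means by itself pushes the values for different mice below those for the same mouse, so the negative values are no separate evidence. A total of 11.8 M reads, the lowest, makes 3 counts 0.245 CPM; this limit covers counting error only.

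Members and lists were chosen with earlier results of these data known. Values per sample are given for members with an adjusted p under 0.05 in any comparison without or with the block and for the 6 highest per kilobase. Others are named by role or, as stated, after their values were seen.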

Additional observations from a re-analysis of the deposited data

How the results depend on the processing

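Counts of members called moved with the fit. With mouse as a replicate block, which rests on the animal each paired set of samples came from, the counts were 3, 1 and 1 in C2 lung against tumour, C2 liver against tumour and C2 lung against liver, 2, 2 and 1 in the same comparisons of C13, 3 in C13 lung against C2 lung and 1 in RT C2 lung against liver; the others kept their count. DESeq2 gave 2, 1 and 1 for C2, 1 and 1 for C13 liver against tumour and lung against liver, 2 in each of C13 lung and C13 liver against C2, and 1 in RT. Without a filter on low counts, edgeR gave 4, 3 and 1 for C2, 2, 3 and 3 for C13, 1, 2 and 2 for C13 against C2 in tumour, lung and liver, 1 and 1 for the differences between subclones in the lung and liver effects against tumour, and 3 in RT. Among these calls TNFRSF11B in C2 liver against tumour had an adjusted p of 6.4e-07 without the filter, against 0.428 with it. With 1 library per C13 sample of mouse 1, C2 lung against tumour gave 1 and C13 against C2 liver 0. RLE scaling moved no count. The cause was not tested in any of these. For the fits without a filter, with 1 library or with samples left out, the share of all genes that passed is not given here. Their counts therefore cannot be read as a result about the members.

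Leaving out samples, alone or (added after seeing the data) all of a mouse, gave 0 to 1 in C13 lung against tumour, 0 to 1 in C13 against C2 liver, 0 to 1 in C13 against C2 lung and tumour, 0 to 2 in C2 lung against tumour, and 0 to 1 in C2 liver against tumour and lung against liver. TNFSF4 in C13 lung against tumour kept log2 fold changes of 3.23 to 3.61 over all alternatives, with adjusted p-values of 0.00904 to 0.593 when samples were left out; TNFSF9 in C13 against C2 liver kept -1.97 to -1.49 and 0.0345 to 0.549. The 15 results that passed with the block were followed under the alternatives, the block among them. Of these 209 single-gene values, 0 reversed, 157 kept their side of the threshold, 36 passed it and 16 lost it. Part of the 36 was fixed by the choice of results that passed with the block. The counts therefore do not measure how firm the results are.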

Other observations

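The members form 9 groups of neighbours in the genome, of which 6 are described. TNFSF9, CD70 and TNFSF14 lie at chr19:6530999-6670588 (GRCh38, GENCODE). In the RT C2 liver sample of mouse 5, CD70 was at 142 CPM while TNFSF9 was at 98.6 CPM, its lowest value in the retransplanted samples, and TNFSF14 reached at most 0.122 CPM in any of them. TNFSF4 shares chr1:172659018-173207313 with FASLG and TNFSF18. In the first experiment, where TNFSF4 reached 38.1 CPM, TNFSF18 reached 1.36 CPM and FASLG 0.411 CPM. TNFRSF1B lies beside TNFRSF8 at chr1:12063377-12209228, and both were highest in the same sample of the first experiment, C2 lung of mouse 3, at 23.0 and 1.88 CPM. TNFRSF1A, LTBR and CD27 lie at chr12:6328757-6451718; in the first experiment TNFRSF1A ran between 148 and 353.5 CPM and LTBR between 81.7 and 134 CPM, while CD27 reached at most 1.11 CPM. Of the TRAIL receptors, which lie together on chromosome 8, TNFRSF10B ran between 160 and 481 CPM, TNFRSF10D between 19.9 and 121 CPM, TNFRSF10A between 21.3 and 51.3 CPM and TNFRSF10C between 0.310 and 3.81 CPM. LTA, TNF and LTB lie together at chr6:31572054-31582522, and TNF was the highest of them in tumours of mice 1 and 2 and not of mouse 3. TNF, LTB and LTA had 15.7, 3.48 and 0.256 CPM in C13 tumour of mouse 2 and 8.03, 4.33 and 0.255 CPM in C2 tumour of mouse 2. In mouse 3 they had 0.836, 0.875 and 0.637 CPM in C13 tumour and 0.207, 1.54 and 0.300 CPM in C2 tumour. These neighbours were chosen after their values were seen, and no test was run on them.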
